A study of Mus musculus with 2 samples.

Results

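Fibroblast growth factors (FGFs), bone morphogenetic proteins (BMPs), activins and transforming growth factors β (TGF-β), with their receptors and secreted inhibitors, were compared between the circumvallate papillae (CvP) and the epithelium without papillae (Epi) of the mouse tongue. Members were taken by gene symbol, with a rule that uses no measured value: numbered *Fgf*, *Fgfr*, *Bmp*, *Tgfb* and *Tgfbr* genes, together with *Bmpr1a*, *Bmpr1b*, *Bmpr2*, *Nog*, *Grem1*, *Chrd*, *Fst*, *Inhba* and *Inhbb*. This gave 47 of the 18498 rows of the gene table. Of these, 25 code for ligands or ligand subunits, 9 for receptors or a co-receptor and 4 for secreted inhibitors. The other 9 carry the name without being ligands or receptors of these pathways. They are the intracellular FGF homologous factors *Fgf11* to *Fgf14*, the proteinase *Bmp1*, the kinase *Bmp2k*, the focal adhesion gene *Tgfb1i1*, and *Fgfr1op* and *Fgfr1op2*, which are named after fusions with *Fgfr1*. Other members of the families, such as *Fgf10* and *Fgfr4*, were not analysed here.

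Both groups were male C57BL/6J mice of 12 to 30 weeks on normal chow, and the labels name no transgene, deletion or treatment. RNA of at least 20 mice was pooled for each tissue and made into 1 poly(A) library, so that each value below is a single measurement, there was no replicate, and no p-value was calculated. Values are reads per kilobase of exon model, scaled to the mapped reads of the library (RPKM). This scaling does not make the libraries wholly comparable, since the values summed to 341141 in the CvP against 411512 in the Epi. Levels of different genes are approximate too, because the listed length of a gene can exceed its annotated transcripts.

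FGFs act on receptor tyrosine kinases, whose signal runs mainly through the MAP kinase cascade and switches on its own brakes, the Sprouty proteins and the phosphatase Dusp6, and the ETS factors Etv1, Etv4 and Etv5. BMPs, activins and TGF-βs bind pairs of type I and type II serine/threonine kinase receptors. BMP receptors activate Smad1, Smad5 and Smad9 and with them the *Id* genes, whereas activin and TGF-β receptors activate Smad2 and Smad3. In the tongue these pathways are known from papilla and taste bud development and from the growth and cornification of the lining epithelium.

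The libraries held about 28.4 (CvP) and 27.9 (Epi) M mapped reads, as estimated from the steps between the lowest RPKM values. From these depths and gene lengths, reads per gene were estimated, and a 95% interval of the CvP/Epi ratio was calculated by the exact Clopper-Pearson method. It covers only the error of counting. Over the 10363 rows with an RPKM of at least 1 in both libraries the median ratio was 1.31 (0.39 on the log2 scale), and the ratios below can be read against it. Markers of cell types were compared with the tissue labels. All 13 taste cell markers examined were above 3-fold in the CvP, with a summed RPKM of 882 against 7.71 and 3 of them at 0 in the Epi. Of 10 markers of keratinized epithelium, all were above an RPKM of 1 and 5 were above 3-fold in the Epi (summed RPKM 33976 in the CvP against 88399 in the Epi). *Krt5* (1506 and 1271), *Ivl* (23.9 and 20.8) and *Trp63* (62.3 and 33.6) were higher in the CvP, and the direction of *Krt5* and *Ivl* depended on the scaling. Some markers of other cell types also differed between the libraries. Of 10 skeletal muscle markers, 7 were above 3-fold in the Epi (summed RPKM 3.43 and 48.5), and of 10 immune markers 7 were above 3-fold in the CvP (253 and 41.1). Of 10 fibroblast markers, 2 were above 3-fold in the CvP and 1, *Dcn*, in the Epi (summed RPKM 46.3 and 132), but the defining collagens *Col1a1*, *Col1a2* and *Col3a1* were at 0.25 or less in both libraries, and *Lum* was at 0 in the CvP. Endothelial and mural markers summed to 8.73 and 2.82, and 3 of 9 had an RPKM of 1 or more. Of these, *Tek* and *Vwf* were above 3-fold in the CvP, and *Cspg4* was lower in the CvP, at 1.05 and 1.74. The other 6 were below 1 in both libraries. Schwann cell and nerve markers summed to 23.1 and 12.2, with 4 of 10 at an RPKM of 1 or more. Of these 4, 2 were above 3-fold in the CvP, and *Nefl*, *Nefm* and *Prph* were at 0 in the Epi. Salivary gland markers summed to 22.2 and 404, with 2 of 7 above 3-fold in the CvP against 3 in the Epi. The part of any of these cells in the results below was not tested, and more cells of a type cannot be told apart from more RNA per cell.

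To show DNA before a start of members that stood higher in the CvP, the 150 bases before a listed transcription start are given for *Inhbb*, *Bmpr1b*, *Tgfb1* and *Fgf13*. The sequences are RefSeq promoters (GRCm38.p6), placed on NCBI37/mm9 by exact match, with starts no more than 13 bases from those of the gene table and no annotated exon in the bases shown. They lie at chr1:121318826-121318975 (minus strand), chr3:141645229-141645378 (minus strand), chr7:26471871-26472020 (plus strand) and chrX:56387614-56387763 (minus strand). The annotated genes *Bmpr1b* and *Fgf13* reach further upstream, to 141832389 and 56821248, so the starts used for these genes lie inside them. Which start the tissues use was not tested. Capitals mark the SMAD-binding motif CAGAC or its complement GTCTG. The ETS motif CCGGAAG and the TATA motif TATAAA were also searched on both strands and were in none of the 4 (5.53% and 7.57% of all promoters hold them).
Inhbb: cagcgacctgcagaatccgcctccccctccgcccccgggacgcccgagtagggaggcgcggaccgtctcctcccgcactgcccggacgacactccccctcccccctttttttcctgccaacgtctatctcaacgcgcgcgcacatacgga
Bmpr1b: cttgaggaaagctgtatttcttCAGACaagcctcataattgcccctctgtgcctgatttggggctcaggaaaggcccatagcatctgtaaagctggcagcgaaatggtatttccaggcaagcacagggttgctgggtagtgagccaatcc
Tgfb1: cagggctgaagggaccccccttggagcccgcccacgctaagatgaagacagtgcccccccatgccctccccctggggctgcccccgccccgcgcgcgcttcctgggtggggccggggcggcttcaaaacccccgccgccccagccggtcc
Fgf13: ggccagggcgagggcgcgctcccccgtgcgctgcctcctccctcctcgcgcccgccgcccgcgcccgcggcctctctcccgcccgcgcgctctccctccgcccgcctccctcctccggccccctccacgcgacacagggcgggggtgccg
The *Inhbb*, *Tgfb1* and *Fgf13* sequences were rich in G and C (68.7%, 76.0% and 84.0%, against a median of 54.0% over 32851 promoters) and held 18, 12 and 24 CG dinucleotides, while that of *Bmpr1b* had 50.7% GC and 1 CG. The motif occurred 1 time in the *Bmpr1b* sequence, 128 to 124 bases before the start, and not in the others, and 27.7% of all promoters hold it in the same window. *Bmp6*, *Bmp5*, *Fgf3*, *Fgf14* and *Fgf22* had a start that differed from the gene table or an annotated exon in this window, and *Bmp3*, *Fgf20*, *Fst* and *Tgfb3* had no entry in the promoter table. The sequence of *Fgf1* was not analysed here.

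Of the 47 members, 31 had an RPKM of 1 or more in at least 1 library, 19 of them in both, 11 in the CvP alone and 1 in the Epi alone. Among the 31, 12 had a CvP/Epi ratio above 3 (38.7%), where 15.9% of all 12549 rows at the same minimum did. Those above 3 in the other direction were 2, *Fgf22* and *Bmp5* (6.45%, against 1.96% of all rows). The median log2 ratio of the 31, with 0.1 added to each value, was 0.82, beside 0.50 over all rows. A member that reached the minimum in the CvP alone was likely to have a high ratio, so these counts describe the set and carry no weight of their own. At the thresholds that the study names, a CvP RPKM above 10 and a ratio above 3, applied here to the table as deposited, 3 members passed, *Inhbb*, *Bmp6* and *Fst*, where 2.35% of all rows did. Of the 14 ligand genes at the minimum, 8 were above 3-fold in the CvP (57.1%, beside 15.9% of all rows). In the other direction there were 2 (14.3%, beside 1.96%). Of 9 receptor genes 1 was above 3-fold, in the CvP (11.1%, near the 15.9% of all rows). These counts depend on the minimum in the same way and carry no weight either. Whether ligands and receptors differed in this was not tested.

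**Figure D1:**
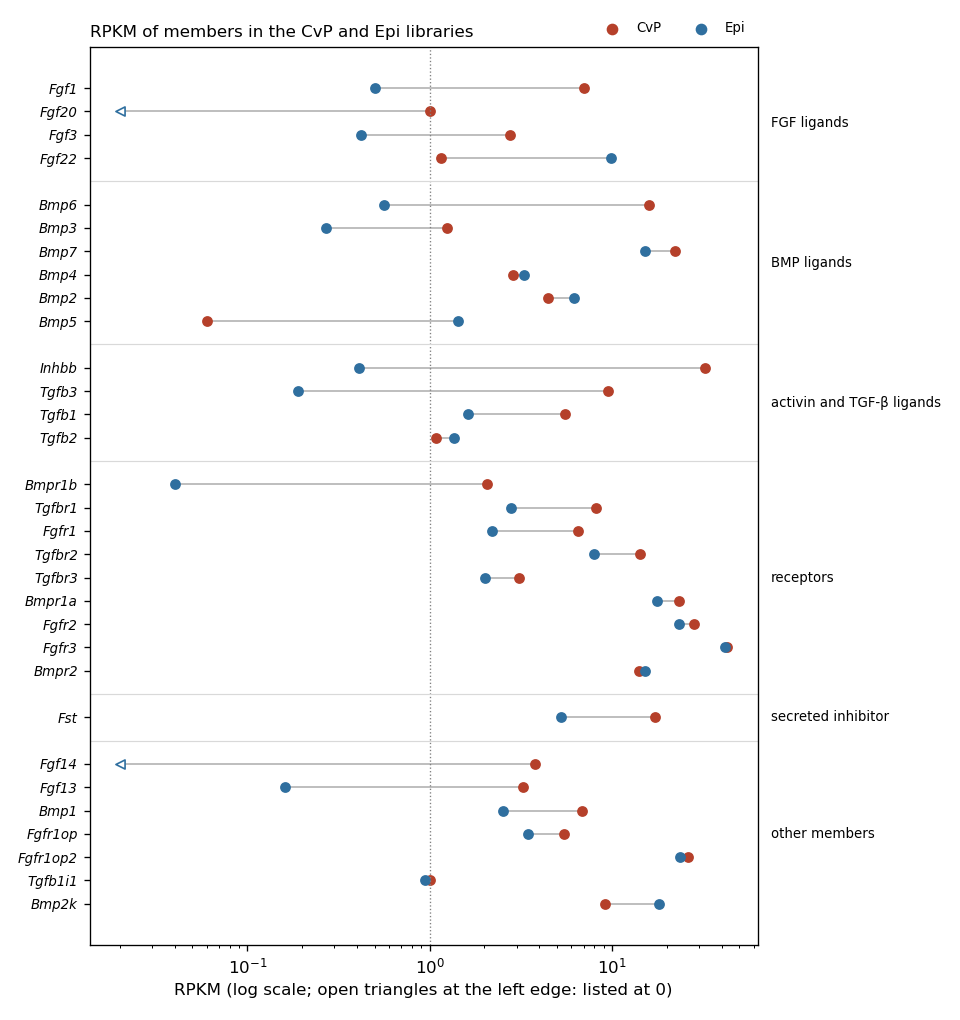
RPKM (log axis) of the 31 members with an RPKM of 1 (dotted line) or more in at least 1 library, 1 value per tissue, red for the CvP and blue for the Epi, grouped by role. The receptors *Fgfr3*, *Fgfr2*, *Bmpr1a* and *Bmpr2* lie high and close together in both tissues, while *Inhbb*, *Bmp6*, *Tgfb3* and *Fgf1* are far apart and *Fgf14* and *Fgf20* are listed at 0 in the Epi.

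Among FGF ligands the tissues differed in which gene led. *Fgf1*, a ligand that can activate all FGF receptors, had an RPKM of 7.01 in the CvP against 0.50 in the Epi, for a ratio of 14.0 (95% interval 10.6 to 18.6). It made up 54.2% of the summed RPKM of the 12 FGF ligand genes in the CvP against 4.47% in the Epi. *Fgf22*, a ligand of the FGF7 subfamily, which acts chiefly on the epithelial forms of the receptors, had the reverse pattern, with 1.16 in the CvP against 9.90 in the Epi. It was thus 8.53-fold higher in the Epi (5.17 to 14.2) and made up 88.6% of the Epi sum. Over all 12 FGF ligand genes the sums were 12.9 and 11.2. *Fgf22* lies on chromosome 10 from 79217864 to 79219706 of NCBI37/mm9, and its listed length is 3.23 times its longest annotated coding transcript.

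*Fgf3*, of the same subfamily, was at an RPKM of 2.77 in the CvP against 0.42 in the Epi, for a ratio of 6.60 (4.19 to 11.1). *Fgf20*, of the FGF9 subfamily, was at 1.00 in the CvP, about 42 reads, and at 0 in the Epi. Against a floor of 3 reads it was at least 13.8-fold higher in the CvP, but 202 of its exon bases are shared with *Efha2* on the opposite strand (RPKM 2.53 and 0.92), and the counting was not stated to use strand. *Fgf9* itself was below an RPKM of 1, at 0.57 in the CvP against 0.01 in the Epi, about 52 reads and 1 read, for a ratio of 57.0 and bounds of 8.78 to 2059. The other 7 FGF ligands, *Fgf2*, *Fgf7*, *Fgf8*, *Fgf16*, *Fgf18*, *Fgf21* and *Fgf23*, were at 0.17 or less in both libraries. *Fgf7*, keratinocyte growth factor, which is made by connective tissue cells, was among them, at 0.04 and 0.08.

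The FGF homologous factors bind voltage-gated sodium channels inside the cell and are not secreted. *Fgf14* (chromosome 14, 124377513 to 125076349) had an RPKM of 3.80 in the CvP, about 389 reads, and was at 0 in the Epi, at least 128-fold higher against the floor of 3 reads. *Fgf13* (chromosome X, 56315328 to 56387613) had 3.26 and 0.16, a ratio of 20.4 (11.3 to 42.0). Both were therefore found almost wholly in the CvP. *Fgf12* was at 0.11 in the CvP against 0 in the Epi, and *Fgf11* was at 0.84 and 0.63, a ratio of 1.33 whose interval (0.92 to 1.94) included 1.

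None of the 3 FGF receptor genes was past 3-fold. *Fgfr3* was the highest in both, at an RPKM of 43.0 in the CvP against 41.8 in the Epi, for a ratio of 1.03 (0.99 to 1.07). It was followed by *Fgfr2*, at 28.1 and 23.4 with a ratio of 1.20 (1.14 to 1.26). *Fgfr1*, the receptor most used by mesenchymal cells, was lowest and was at 6.48 and 2.19, a ratio of 2.96 (2.60 to 3.38), just short of 3. The order of the 3 genes was thus the same in both libraries. After division by 1.31, the median, those of *Fgfr3* and *Fgfr2* were 0.78 and 0.91, so no direction is given for them, while *Fgfr1* stayed above 1 at 2.25. The listed lengths of *Fgfr2* and *Fgfr3* are 4.66 and 3.71 times their longest coding transcripts, which bears on their levels. The length is the same in both libraries and cancels in the ratio. Whether reads from the bases beyond the transcript differed between the tissues was not tested. The gene-level values do not separate the epithelial and mesenchymal splice forms of the receptors.

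**Figure D2:**
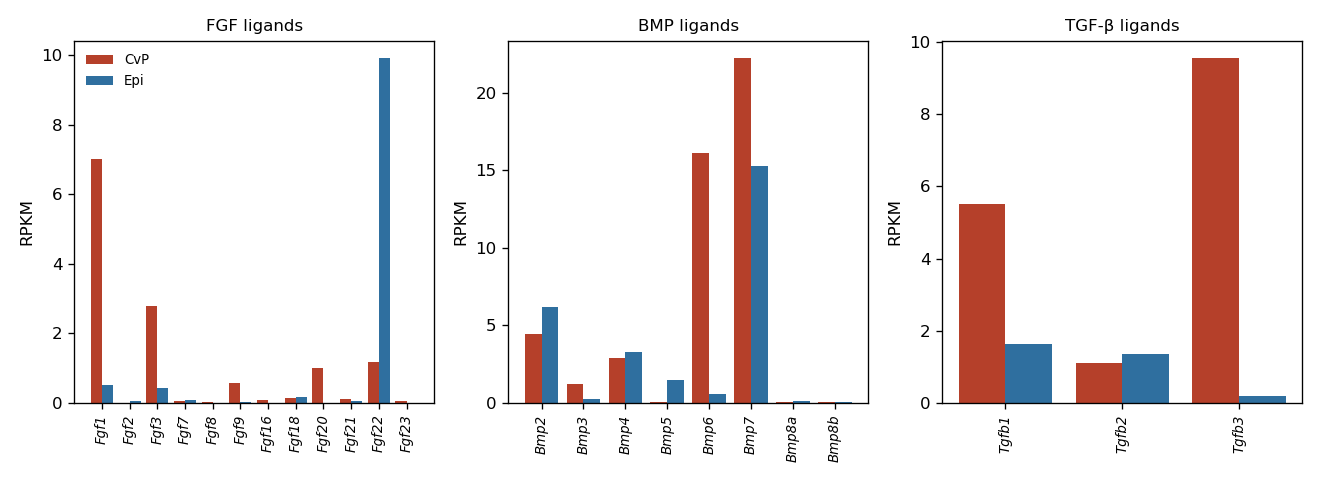
RPKM of every FGF, BMP and TGF-β ligand gene of the set in the CvP (red) and Epi (blue) libraries, 1 value per bar, linear axes from 0. *Fgf1* leads in the CvP and *Fgf22* in the Epi, *Bmp7* leads in both with *Bmp6* second in the CvP, and *Tgfb3* is the highest TGF-β gene in the CvP and the lowest in the Epi.

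BMP ligands were led by *Bmp7* in both tissues, at an RPKM of 22.2 in the CvP against 15.3 in the Epi, for a ratio of 1.45 (1.36 to 1.55) that lay close to the median of all rows. *Bmp6* (chromosome 13, 38437585 to 38591597), a ligand of the same subgroup, was at 16.1 in the CvP against 0.56 in the Epi, for a ratio of 28.7 (21.9 to 38.9). It was the second BMP gene in the CvP, with 34.2% of the summed BMP ligand RPKM, and the fifth in the Epi, with 2.06%. Of its exon bases, 236 are shared with *Txndc5* on the opposite strand, whose RPKM was 50.0 in the CvP against 24.9 in the Epi. The share of reads that came from it was not tested. *Bmp3*, which antagonizes other BMPs, was low in both, at 1.24 and 0.27, and its ratio of 4.59 had an interval (2.95 to 7.66) that reached below 3.

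*Bmp5* (chromosome 9, 75623172 to 75746824) had the opposite pattern, with an RPKM of 0.06 in the CvP against 1.44 in the Epi, from about 4 and 102 reads. It was 24-fold higher in the Epi (9.82 to 97.0), and number 12480 of 12549 rows in falling order of the log2 ratio with 0.1 added to each RPKM. Its exons share 1878 bases with the antisense non-coding gene *Gm16662*, so that reads of either gene could have been counted. *Bmp2* and *Bmp4*, the subgroup best known from developing papillae, were not past 3-fold. *Bmp2* had 4.44 in the CvP against 6.18 in the Epi (ratio 0.72, 0.64 to 0.81) and *Bmp4* had 2.87 and 3.30 (0.87, 0.70 to 1.08). The direction of *Bmp4* turned when both libraries were rescaled to the same RPKM sum. *Bmp8a* and *Bmp8b* were at 0.09 or less, from about 5 reads or fewer in either library, and are uncertain for that reason. They are close copies of each other, and whether reads were shared between them was not tested.

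*Bmpr1b* was the receptor with the largest difference. This type I receptor (chromosome 3, 141500100 to 141645215) had an RPKM of 2.07 in the CvP against 0.04 in the Epi, from about 313 and 6 reads, a ratio of 51.8 (23.3 to 141). The other type I receptor, *Bmpr1a*, was far more abundant, at 23.5 and 17.7, and its ratio of 1.33 (1.27 to 1.40) was at the median of all rows. *Bmpr1b* therefore made up 5.21% of the summed BMP receptor RPKM in the CvP against 0.12% in the Epi. The type II receptor *Bmpr2* was at 14.1 and 15.1, a ratio of 0.93 (0.87 to 1.01), and its direction depended on the scaling.

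Of the secreted BMP inhibitors, *Nog* and *Grem1* had 3 or fewer reads in either library, and *Chrd* was at 0.12 in the CvP against 0.06 in the Epi and bounds of the ratio of 0.69 and 7.95. Differences in these genes were not detectable at this depth. *Fst*, follistatin, which binds activins and more weakly BMPs, was the only inhibitor of the set above an RPKM of 1. It had 17.3 in the CvP against 5.27 in the Epi, for a ratio of 3.28 (2.90 to 3.70), which was 2.49 after division by the median ratio.

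The largest ratio of all members with reads in both libraries was that of *Inhbb*, the βB subunit of activin B and inhibin B. On chromosome 1 from 121312042 to 121318825, it had an RPKM of 32.6 in the CvP against 0.41 in the Epi, from about 3934 and 49 reads, a ratio of 79.5 (59.6 to 107). It was number 92 of 12549 rows in falling order of the log2 ratio with 0.1 added to each RPKM, and no other ligand of the set had so high an RPKM in the CvP. *Inhba*, the βA subunit, was at 0.53 and 0.03, about 29 and 2 reads, with a ratio of 17.7 and a wide interval from 3.61 to 123. *Inha*, which pairs with either subunit to form inhibin and is not itself a member of the set, was at 4.75 and 1.06, a ratio of 4.48 (3.20 to 6.32).

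The TGF-β ligands also changed places. *Tgfb3* (chromosome 12, 87397693 to 87419991) was at an RPKM of 9.55 in the CvP against 0.19 in the Epi, for a ratio of 50.3 (31.5 to 84.9), and made up 59.1% of the TGF-β ligand sum in the CvP but 5.97% in the Epi. *Tgfb1* was the highest in the Epi, at 1.63, and was at 5.52 in the CvP, a ratio of 3.39 (2.70 to 4.31) that came to 2.58 after division by the median. *Tgfb2* was at 1.09 and 1.36, a ratio of 0.80 whose interval (0.64 to 1.00) was near 1. None of the 3 TGF-β receptor genes was past 3-fold. The type I receptor *Tgfbr1* had 8.22 and 2.78, a ratio of 2.96 (2.65 to 3.30). The type II receptor *Tgfbr2* had 14.2 and 8.01 (1.77, 1.65 to 1.91), and the co-receptor *Tgfbr3* 3.10 and 2.01 (1.54, 1.35 to 1.77).

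Of the members that are neither ligands nor receptors, *Bmp1*, which cleaves procollagens and the inhibitor chordin, was at an RPKM of 6.89 in the CvP against 2.54 in the Epi (ratio 2.71, 2.36 to 3.14). *Bmp2k* was at 9.14 and 18.2 (0.50, 0.48 to 0.53), but 1185 of its exon bases are shared with *Paqr3* on the opposite strand, which was also lower in the CvP, at 2.33 and 6.54. *Fgfr1op* was at 5.46 and 3.45 (1.58, 1.38 to 1.82). *Fgfr1op2* (26.3 and 23.5) and *Tgfb1i1* (1.00 and 0.94) had ratios of 1.12 and 1.06, on opposite sides of 1 depending on the scaling.

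**Figure D3:**
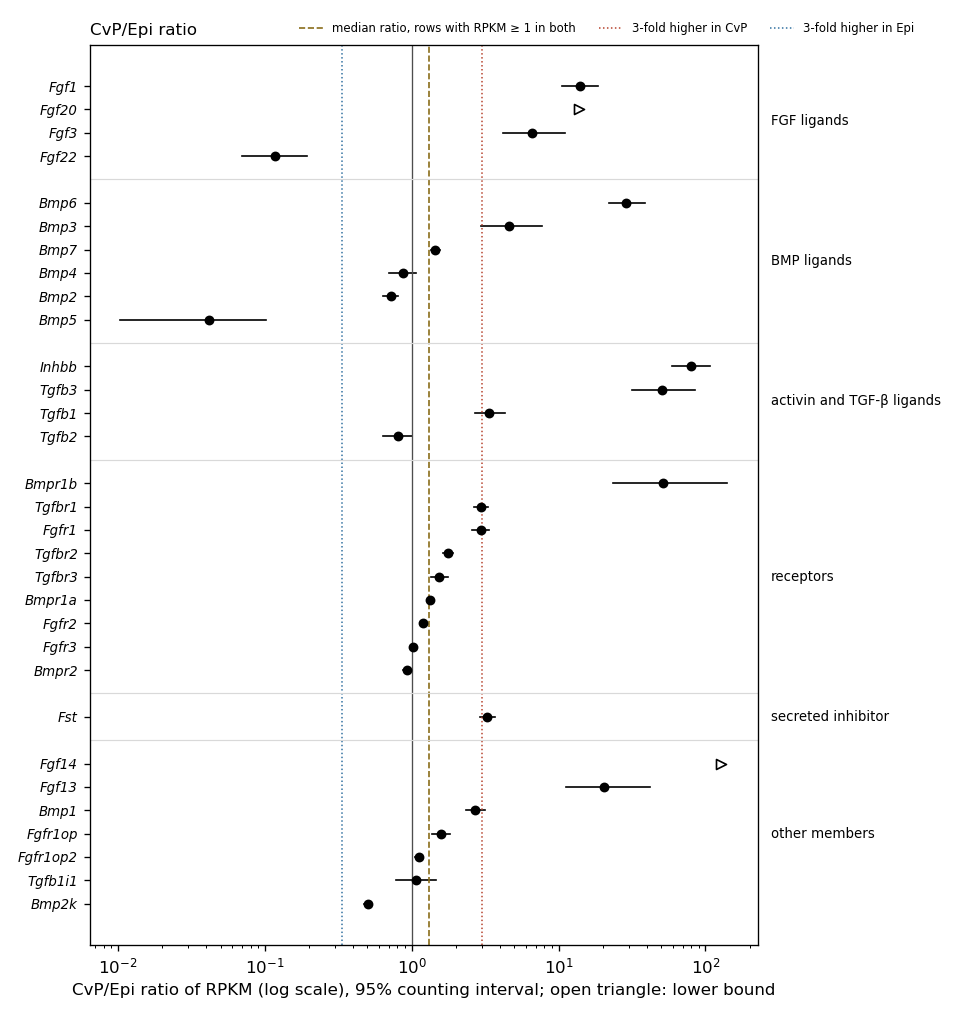
CvP/Epi ratio of RPKM (log axis) of the same 31 members, with bars for the 95% counting interval and open triangles for lower bounds of the 2 genes listed at 0 in the Epi; lines mark 1, the median ratio of 1.31, and 3-fold in either direction. The intervals of *Fgf22* and *Bmp5* lie wholly beyond 3-fold in the Epi. Those of *Bmp3*, *Tgfb1* and *Fst*, whose ratios are past 3, cross the 3-fold line in the CvP. The intervals of *Fgfr1*, *Tgfbr1* and *Bmp1*, whose ratios are below 3, cross it as well.

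Genes that act with FGFs or respond to them were examined from lists. Of 10 response and feedback genes with an RPKM of at least 1, 5 were above 3-fold in the CvP, beside the 15.9% of all rows, and the median log2 ratio was 1.83. *Etv1* had an RPKM of 9.63 in the CvP against 0.15 in the Epi, for a ratio of 64.2 (40.5 to 109). The related *Etv4* and *Etv5* had 6.24 and 1.29, and 9.16 and 1.87, with ratios of 4.84 (3.84 to 6.19) and 4.90 (4.21 to 5.74). *Dusp6*, which dephosphorylates ERK, was at 17.8 and 3.76, a ratio of 4.72 (4.17 to 5.38), and *Il17rd*, an inhibitor of FGF receptors, at 2.52 and 0.06, a ratio of 42.0 (24.4 to 76.0). The Sprouty genes differed in direction. *Spry1* was at 6.38 in the CvP against 12.0 in the Epi (ratio 0.53, 0.48 to 0.59), *Spry2* at 8.87 and 4.29 (2.07, 1.77 to 2.41), and *Spry4* was below the minimum, at 0.71 and 0.04. *Spred1*, *Spred2* and *Spred3* were not past 3-fold.

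Of 7 co-receptors, binding proteins and adaptors of FGFs at the minimum, 3 were above 3-fold in the CvP (42.9%, beside 15.9% of all rows). *Fgfrl1*, a receptor-like protein that binds FGFs and lacks a kinase, was at an RPKM of 16.2 in the CvP against 0.81 in the Epi, for a ratio of 20.0 (15.4 to 26.4). *Flrt2*, a membrane protein that interacts with FGF receptors, was at 6.17 and 1.61 (3.83, 3.39 to 4.35) and *Frs3*, a docking protein of the receptors, at 1.09 and 0.25 (4.36, 2.44 to 8.17).

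On the BMP and TGF-β side, none of the 7 Smads or the 4 other receptors at the minimum was past 3-fold. In lists this short that is near the share of all rows, 15.9% in the CvP and 1.96% in the Epi. Their median log2 ratios were 0.65 and 0.92, beside 0.50 over all rows. *Smad7*, an inhibitory Smad, was at 5.0 in the CvP against 3.03 in the Epi, for a ratio of 1.65 (1.45 to 1.88). The BMP targets *Id1*, *Id2* and *Id3* were abundant in both, at 90.5 and 100.4, 14.4 and 12.5, and 32.4 and 24.2. Their ratios were 0.90, 1.16 and 1.34, beside the median of 1.31 over all rows. That of *Id3* had an interval of 1.23 to 1.47, and those of *Id1* and *Id2* lay on a side of 1 that depended on the scaling. *Id4* was at 18.4 and 7.64, with a ratio of 2.41 (2.12 to 2.73). Of 12 response genes 2 were above 3-fold in the CvP (16.7%, near the 15.9% of all rows) and 1 in the Epi (8.33%, beside 1.96%). *Ctgf*, a matricellular gene induced by TGF-β, had 33.9 and 0.36, a ratio of 94.3 (63.6 to 148), and *Tgif1*, a repressor of Smad2, had 16.9 and 3.35, a ratio of 5.05 (4.26 to 6.01). *Msx2*, a homeobox target of BMPs, had 0.63 and 7.87, a ratio of 0.080 (0.057 to 0.112).

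Among 11 other extracellular modulators at the minimum, 2 were above 3-fold in the CvP (18.2%, near the 15.9% of all rows) and 1 in the Epi (9.09%, beside 1.96%). *Rgma*, a BMP co-receptor, had an RPKM of 31.1 in the CvP against 8.34 in the Epi, for a ratio of 3.73 (3.46 to 4.03). *Ltbp4*, which binds latent TGF-β in the matrix, had 35.0 and 9.97 (3.51, 3.31 to 3.72). *Sostdc1*, a secreted inhibitor of BMP and Wnt signals, was lower in the CvP, at 1.96 and 7.22, with a ratio of 0.271 (0.214 to 0.339). Of the other ligands of the superfamily 2 reached the minimum, *Inha* and *Lefty1*, and of these *Inha* alone was past 3-fold.

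**Figure D4:**
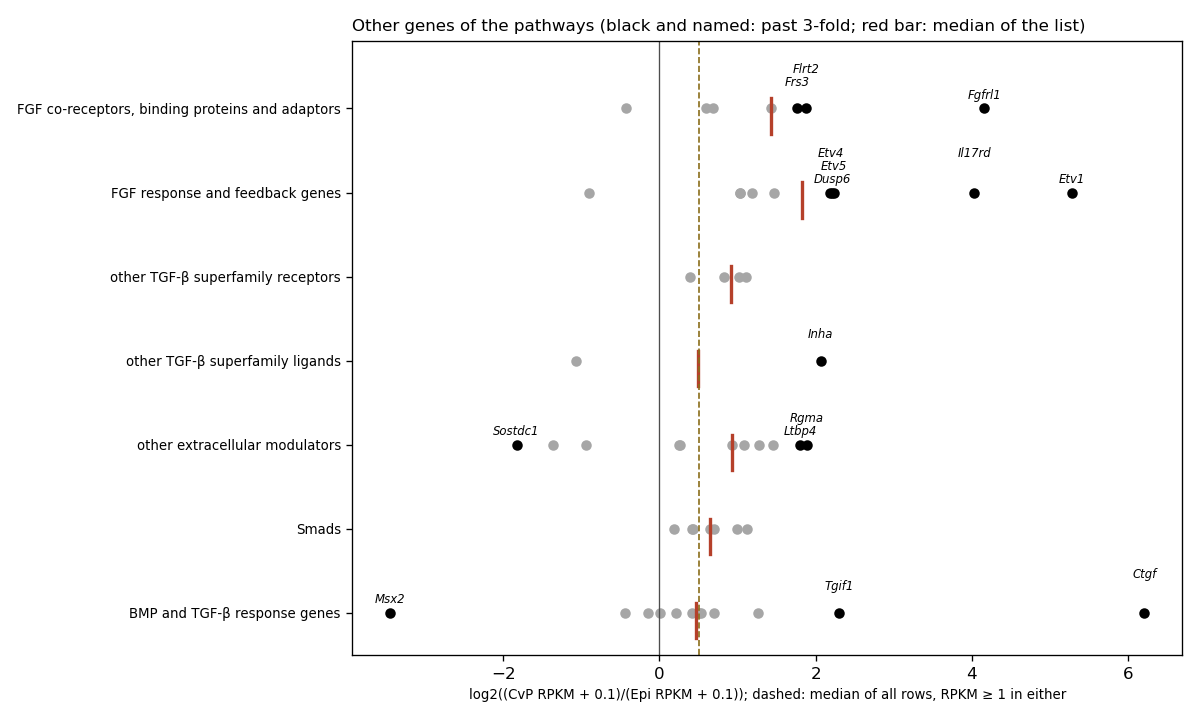
Log2 ratio of CvP to Epi RPKM, with 0.1 added to each, of the other genes of the pathways with an RPKM of 1 or more in at least 1 library, 1 point per gene, in 7 lists; red bars give each list's median and the dashed line the median of all rows (0.50). Past 3-fold genes are black and named: *Etv1*, *Il17rd*, *Fgfrl1* and *Ctgf* stand farthest to the CvP side and *Msx2* and *Sostdc1* to the Epi side, while no Smad passes 3-fold.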

How the data were processed

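The authors prepared poly(A) RNA libraries with a TruSeq kit, mapped single-end reads with Bowtie 0.12.7 to NCBI37/mm9, and obtained with ERANGE the RPKM values that they deposited, given to 2 decimals, so the lowest values are coarse. The ERANGE options are not given in the sources used here. The table's CvP/Epi column, the authors' own comparison, was not used.

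Samples were grouped by the tissue label, with 1 library each, so no test was run. From the RPKM values, ratios were taken without a pseudocount, and medians of log2 ratios with one of 0.1. A row counted as past the fold with an RPKM of 1 or more in at least 1 library and a ratio above 3, a value of 0 in the lower tissue included. Depth was taken from RPKM steps in the 163 rows of 0.1 kb, and reads from whichever was shorter, the table's length or that of the longest GENCODE M1 coding transcript. For 15 of the 31 members at the minimum the listed length exceeded that transcript by more than 1.5 times, so reads and levels are approximate. Genes were named if they were members at the minimum, related genes past 3-fold, or *Dusp6*, *Spry1*, *Spry2*, *Spry4*, *Id1*, *Id2*, *Id3* and *Smad7*; members below the minimum, marker genes, overlapping genes, *Id4*, *Lefty1* and the *Spred* genes were named after their values were seen. Members and lists were chosen with earlier results of these data known. Depth, intervals and calls were tested on simulated data. Alternatives were other minimums, folds, pseudocounts and scalings, ligands, receptors and inhibitors alone, and intervals wholly past the fold. Calculations used Python 3.11.15, numpy 2.4.6, pandas 2.3.3, scipy 1.17.1 and matplotlib 3.10.9.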

Additional observations from a re-analysis of the deposited data

How the results depend on the processing

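No paired analysis was possible because the CvP and the Epi are represented by 1 library each, and nothing was tested. The 12 members above 3-fold in the CvP (38.7%, beside 15.9% of all rows) were 19 with no minimum RPKM (40.4%, beside 26.1%). With a pseudocount of 1 they were 6 (19.4%, beside 7.34%). Under the other alternatives they were between 9 and 15. A ratio above 5 gave 9 (29.0%, beside 10.3%), and one above 2 gave 15 (48.4%, beside 28.2%). Division by the median ratio took *Fst* and *Tgfb1* below 3, and rescaling to a common RPKM sum took *Fgfr1*, *Tgfbr1* and *Bmp1* above it. The 2 members above 3-fold in the Epi (6.45%, beside 1.96% of all rows) were 5 with no minimum (10.6%, beside 4.70%). They were 1 with a minimum of 2 (3.85%, beside 1.75%) and 1 with a pseudocount of 1 (3.23%, beside 1.20%). The 3 members meeting the study's criteria were 8 and 6 with a CvP RPKM above 3 and 5, and 10 after rescaling, which raises every RPKM. The share of all rows that met them at these other settings was not calculated. The median log2 ratio of 0.82 was 1.11 with a minimum of 0.5 or 2, 0.54 with none, 0.43 relative to the median row, 1.09 after rescaling and 1.17 for ligands, receptors and inhibitors alone. Of the 29 members with a ratio, 6 lay on a side of 1 that depended on the scaling. Members above 3-fold could not turn in this way. The scalings changed ratios by factors of 1.31 and 1.21 only, and a pseudocount cannot carry a ratio past 1. With 1 library per tissue, intervals cover counting error only, and members with a few reads in either library have ratios of uncertain size.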
